A study of Mus musculus with 14 samples.

Results

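The 9 genes described here mark the oligodendrocyte lineage and the myelin sheath: Mbp, Mog, Mag, Mobp, Cnp, Cldn11, Olig1, Olig2 and Pdgfra. They were taken by gene name from the 2 RNA-seq count tables of the study, which list 26570 genes (basal table) and 25933 genes (learning table). All 9 were found once in each table, and all 9 passed the filter on low counts in both. The RNA was extracted from dorsal hippocampi of males aged 8 months, whose strain is C57BL6 in the labels and C57BL6/J in the methods of the study.

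The basal experiment compared untrained WT mice (basal WT, n = 3) with THY-Tau22 mice (basal THY-Tau22, n = 2), which carry mutated human Tau under the neuronal Thy1.2 promoter. The learning experiment held 4 groups. WT mice given saline stayed in the home cage (WT VEH_HC, n = 3) or were trained in the Morris water maze (WT VEH, n = 2). THY-Tau22 mice trained in the maze received carbon nanospheres alone (CSP; TAU VEH, n = 2) or nanospheres carrying TTK21, an activator of the acetyltransferases CBP and p300 (CSP-TTK21; TAU MOL, n = 2). TAU VEH and WT VEH therefore differ in genotype and in the injected vehicle, and these cannot be told apart. The transgene is driven in neurons, not in oligodendrocytes, and the tables list mouse genes, so the human transgene has no row of its own and was not used to check the labels. The authors left out 3 of the learning libraries after seeing the data, and those libraries were not analysed here.

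Oligodendrocytes wrap axons in myelin, a compacted membrane that speeds conduction and feeds the axon. They arise from precursor cells that carry the PDGF receptor alpha, divide in response to PDGF and persist in the adult brain. The basic helix-loop-helix factors Olig1 and Olig2 act throughout the lineage, and the genes of the myelin membrane are switched on as the cell matures. The hippocampus holds less myelin than the fibre tracts above it and the thalamus below it, which lie next to it at dissection. In RNA from whole tissue, fewer oligodendrocytes and less RNA per oligodendrocyte cannot be told apart.

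Of the structural genes, Mbp encodes myelin basic protein, which holds the membrane layers together. In the mm9 build Mog (a glycoprotein of the outermost myelin surface) spans bases 37147691 to 37160343 of chromosome 17, and Mag (an adhesion protein that faces the axon) spans 31684202 to 31699851 of chromosome 7. Mobp (a small basic protein of compact myelin) spans 120058860 to 120090602 of chromosome 9. Cnp (a phosphodiesterase of the non-compacted myelin) spans 100436218 to 100453043 of chromosome 11. Cldn11 (the claudin of myelin tight junctions) spans 31048868 to 31063246 of chromosome 3. The genes of both Olig factors are neighbours on chromosome 16, Olig2 at 91225795 to 91228922 and Olig1 at 91270014 to 91272184. Pdgfra, the receptor of precursor cells, spans 75548316 to 75594229 of chromosome 5. Cnp shares 154 exon bases with Dnajc7 on the opposite strand, and since the library kit does not mark the strand, reads in that stretch cannot be assigned to 1 of them.

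The 250 bases before the annotated start of 4 members are shown. Mobp and Mag were taken because their ratio differed between WT VEH_HC and WT VEH, as described further on. Olig1 and Olig2 were taken because they belong to 1 family and 1 locus. The outermost annotated transcript start was used, and the strand is that of the gene. Capitals mark matches, on either strand, to 6 words of 6 letters: the E-boxes CAGATG and CAGCTG (the type of site that Olig factors bind), the words ACAATG and ACAAAG (found in SOX sites), the GC box GGGCGG and the TATA box TATAAA. The windows are chr7:31699852-31700101 (Mag, minus strand), chr9:120058610-120058859 (Mobp, plus strand), chr16:91269764-91270013 (Olig1, plus strand) and chr16:91225545-91225794 (Olig2, plus strand) of mm9.
Mag: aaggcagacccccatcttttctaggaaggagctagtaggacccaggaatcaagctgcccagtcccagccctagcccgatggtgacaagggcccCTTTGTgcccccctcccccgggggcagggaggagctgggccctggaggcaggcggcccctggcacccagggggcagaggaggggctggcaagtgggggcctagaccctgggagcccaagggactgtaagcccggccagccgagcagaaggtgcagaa
Mobp: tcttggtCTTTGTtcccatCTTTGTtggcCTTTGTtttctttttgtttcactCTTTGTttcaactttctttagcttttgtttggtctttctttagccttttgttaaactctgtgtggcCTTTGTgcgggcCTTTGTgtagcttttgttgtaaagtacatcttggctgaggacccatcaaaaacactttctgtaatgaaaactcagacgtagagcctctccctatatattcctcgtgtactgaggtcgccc
Olig1: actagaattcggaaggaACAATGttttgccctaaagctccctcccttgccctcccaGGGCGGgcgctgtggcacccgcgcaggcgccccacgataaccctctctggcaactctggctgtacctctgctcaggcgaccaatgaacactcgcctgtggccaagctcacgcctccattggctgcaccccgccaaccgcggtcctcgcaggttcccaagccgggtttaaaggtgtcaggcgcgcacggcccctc
Olig2: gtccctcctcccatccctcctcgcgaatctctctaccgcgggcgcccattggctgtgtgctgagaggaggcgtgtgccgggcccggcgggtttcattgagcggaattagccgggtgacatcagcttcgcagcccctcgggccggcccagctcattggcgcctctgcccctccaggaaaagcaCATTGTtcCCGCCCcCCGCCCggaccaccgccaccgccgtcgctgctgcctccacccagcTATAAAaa

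Among these 4 windows no base belonged to 2 matches. ACAAAG was found 6 times before Mobp and once each before Mag and Cnp, so that 3 of 9 members held it, against 14.3% of the 19233 protein-coding promoters of the same length. Both Olig promoters held ACAATG (7.48% of all promoters) and GGGCGG (45.3%), and the Olig2 promoter also held TATAAA (9.33%). GGGCGG was present before 4 of 9 members. CAGATG was found before Pdgfra only among the members (12% of all promoters) and CAGCTG before none of them (12.3%). The base composition of the windows spread widely: 67.6% GC before Mag, 40.8% before Mobp, 63.6% before Olig1 and 66.8% before Olig2, where the median of all promoters was 56%. Mobp was also the lowest of these 4 genes by exon GC content, which was 57.7% for Mag, 50.6% for Mobp, 60.8% for Olig1 and 58.2% for Olig2.

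The libraries held 28639121 to 37681155 counts in the basal and 24693713 to 52180305 in the learning experiment. The smallest count of any member in any library was 928 (Olig2), so the spread between libraries and not the depth limits what follows. The 9 genes together took between 0.334% and 0.97% of a library's counts. Levels below are CPM, counts scaled to a common library size with TMM factors within each experiment, so they are not compared between the experiments. Tests were made with edgeR's quasi-likelihood method and adjusted over all genes tested, and a gene was called where the adjusted p was below 0.05 and the log2 fold change was larger than 0.2 in either direction.

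Per kilobase of exon, Mbp stood highest in each group and Pdgfra lowest. In basal WT mice Mbp reached 612 ± 144 CPM per kb (SD, n = 3), followed by Mobp (200.4 ± 54.6) and Cnp (196 ± 44.6). Mag (146 ± 36.8), Cldn11 (120 ± 25.8) and Olig1 (89.3 ± 16.2) came next on this scale, and from Mobp to Olig1 each gene's libraries overlapped those of its neighbour in the order. Mog (57.7 ± 12.4), Olig2 (17.4 ± 3.61) and Pdgfra (5.67 ± 0.428) did not overlap with their neighbours. The same order held in WT VEH, TAU VEH and TAU MOL. It changed in WT VEH_HC, where Mag (124 ± 42.0 CPM per kb, n = 3) and Cnp (123 ± 37.7) stood above Mobp (105 ± 38.8) and Olig1 (98.0 ± 20.2) above Cldn11 (85.0 ± 29.8), with overlapping libraries, and in basal THY-Tau22, where Cnp (143 ± 23.3, n = 2) stood above Mobp (133 ± 16.1), also with overlap.

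**Figure D1:**
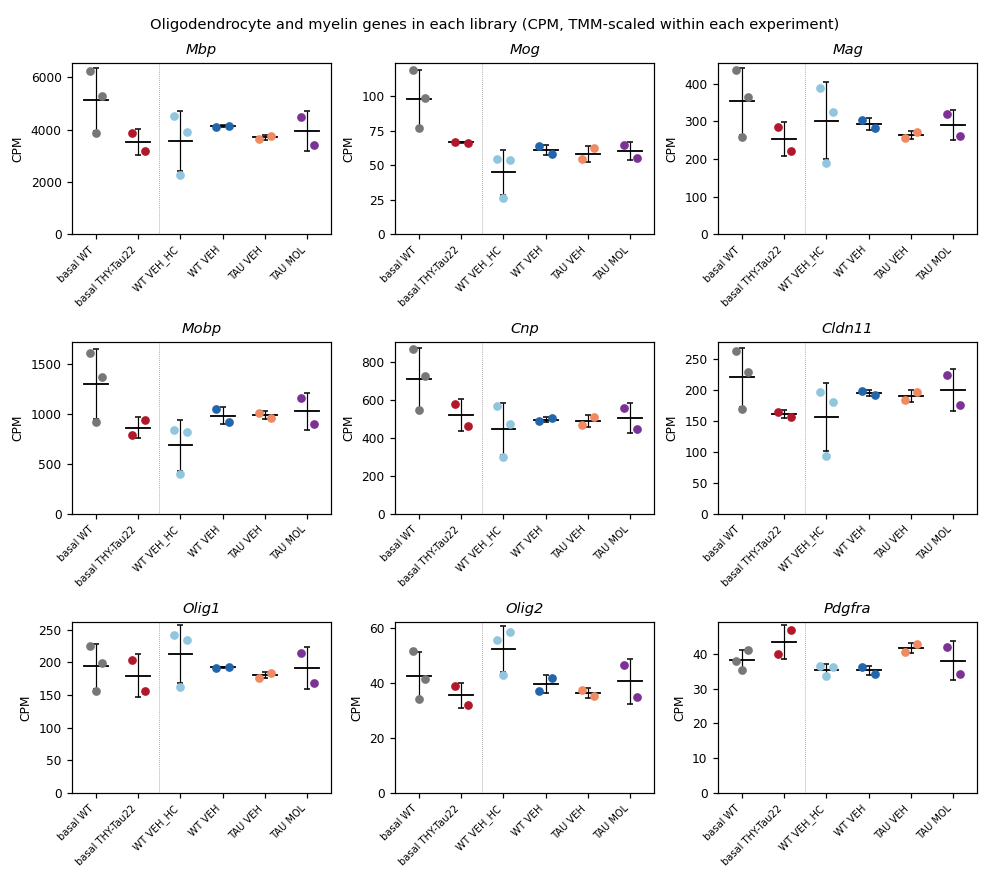
CPM of each of the 9 genes (vertical axes, from 0) in every library of the 6 groups. Points are libraries, horizontal lines are group means and whiskers are ± 1 SD. The basal groups (left of the dotted line) and the learning groups were scaled separately. The 6 structural genes spread by up to 2.13-fold within WT VEH_HC, while Pdgfra stays between 33.6 and 47 CPM in all libraries.

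The first comparison asked whether the myelin and lineage genes differ between resting THY-Tau22 and WT mice. All 6 structural genes had lower mean levels in THY-Tau22 mice, at 0.662 to 0.731 times those of WT, while Pdgfra had a higher mean, and none of the 9 was called. Mbp was at 6259.85, 3862 and 5301 CPM in the 3 WT libraries and at 3872 and 3165 CPM in the THY-Tau22 libraries. The lowest WT library lay between both THY-Tau22 libraries. Mobp was at 1617, 917 and 1371 CPM in WT and at 789 and 936 CPM in THY-Tau22, with the same overlap. Mog was at 119, 76.7 and 98.9 CPM in WT and at 66.7 and 65.9 CPM in THY-Tau22.

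Mog and Cldn11 were the only 2 members whose THY-Tau22 libraries all lay below the WT libraries, as did 9.49% of all genes tested, and no member lay wholly above, as 9.01% of genes did. Cldn11 was at 263, 169 and 229.6 CPM in WT and at 165 and 156 CPM in THY-Tau22. For both genes the lowest WT library was replicate 2, and the gap to the THY-Tau22 libraries was small beside the spread in WT. Mag (436, 258 and 365 CPM against 286 and 221) and Cnp (869, 545 and 727 CPM against 581 and 462) overlapped.

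The log2 fold changes of the structural genes, THY-Tau22 minus WT, ran from -0.59 (Mobp, SE 0.21, 95% interval -1.07 to -0.12) to -0.45 (Cnp, SE 0.19, interval -0.88 to -0.03). Mog had -0.57 (SE 0.17) and Mbp -0.55 (SE 0.20). The unadjusted p of these 6 genes lay under 0.05, as that of 4.92% of all genes tested did (803 of 16324), but the adjusted p was 0.901 for each, and edgeR and DESeq2 both called 0 of 9 members. In this comparison edgeR called 0.0245% of the genes tested. Without a filter on low counts, Mog was called (adjusted p = 0.0478 in edgeR).

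Olig1 was at 226, 156 and 199.7 CPM in WT and at 203 and 157 CPM in THY-Tau22. Olig2 was at 51.5, 34.0 and 41.5 CPM in WT and at 38.7 and 32.1 CPM in THY-Tau22. Both transcription factors overlapped between the genotypes, with log2 fold changes of -0.11 (SE 0.17) and -0.26 (SE 0.17). Pdgfra was at 38.1, 35.3 and 41.1 CPM in WT and at 40.1 and 47.0 CPM in THY-Tau22, a log2 fold change of 0.19 (SE 0.13, interval -0.09 to 0.47). Its adjusted p was 0.901, and its libraries overlapped too.

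The rest of the mature lineage had lower means as well, and again without a call. Of 27 further genes of myelin and mature oligodendrocytes, 1 had a positive log2 fold change, 13 had an unadjusted p under 0.05 (beside the 4.92% of all genes) and 0 were called in edgeR, and their median was -0.39, where the median of all genes tested was -0.01. Sox10 and Myrf, which drive myelin gene transcription, had -0.44 (SE 0.18) and -0.39 (SE 0.20). Of the 9 lineage transcription factors tested, which include both, 4 had a positive log2 fold change, and the median was -0.24. The genes of newly formed oligodendrocytes had a median of -0.06 over 8 genes, and those of precursor cells a median of 0.03 over 10 genes, with 5 positive.

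Single libraries moved these values. The median of the 9 members was -0.46 with all libraries, -0.29 without basal WT replicate 1, -0.30 without basal THY-Tau22 replicate 2 and -0.60 without basal WT replicate 2. Markers of a neighbouring region moved with the myelin genes: all 9 thalamus markers had lower means in THY-Tau22 (0 called, median log2 fold change -0.58), and their summed level was 121 to 311 CPM in WT and 103 to 147 CPM in THY-Tau22, with none at 0. Their part in the myelin values was not tested. WT replicate 2, the lowest WT library for the structural genes, was also the lowest WT library for the thalamus markers (121 CPM), although the highest library for the thalamus (replicate 3) was not the highest for myelin. Choroid plexus markers summed to 596 to 713 CPM in WT and to 701 and 1982 CPM in THY-Tau22 (0 of 14 called), and vascular fibroblast-like markers to 85.0 to 145 and 100.2 to 227 CPM. Astrocyte markers summed to 4592 to 4829 CPM in WT and to 5189 and 6295 CPM in THY-Tau22 (0 of 8 called), microglia markers to 503 to 525 and 567 to 594 CPM (0 of 8 called), and neuron markers to 7142 to 8147 and 7343 to 7515 CPM (0 of 9 called).

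The second comparison, of maze-trained with home-cage WT mice, addressed the response to learning. Mog and Mobp were higher in both trained libraries than in all home-cage libraries, and Olig2 was lower in both, but none of the 9 members was called in edgeR, where 8.4% of all genes were. Mobp was at 1047 and 923 CPM in WT VEH and at 836, 393 and 823 CPM in WT VEH_HC. Mog was at 63.4 and 58.3 CPM in WT VEH and at 54.7, 26.0 and 53.4 CPM in WT VEH_HC. The home-cage library replicate 2 was the lowest of all for both genes.

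Lying wholly above the home-cage libraries was shared by 23% of all genes tested, and lying wholly below by 20.8%. The log2 fold change was 0.53 for Mobp (SE 0.24, interval -0.004 to 1.06, adjusted p = 0.182 in edgeR) and 0.45 for Mog (SE 0.23, adjusted p = 0.232). Over the alternatives run the adjusted p ranged from 9.75e-11 to 0.548 for Mobp and from 3.79e-06 to 0.582 for Mog, lowest for both without the filter on low counts, where both were called higher. Mobp was also called with the replicate number as a block (log2 fold change 0.75, adjusted p = 0.029 in edgeR). Without WT VEH_HC replicate 2 the log2 fold change was 0.25 for Mobp and 0.17 for Mog. Mbp (4109 and 4153 CPM against 4507, 2267 and 3916) and Cldn11 (198 and 191 CPM against 196, 93.8 and 180.3) overlapped, with 0.21 (SE 0.21) and 0.32 (SE 0.23). Without that home-cage library these became -0.03 for Mbp and 0.05 for Cldn11.

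Mag and Cnp after training lay inside the range of the home-cage libraries. Mag was at 304 and 282 CPM in WT VEH and at 389.6, 190.045 and 326 CPM in WT VEH_HC. Its log2 fold change was -0.04 (SE 0.21, interval -0.51 to 0.43). Cnp was at 488 and 505 CPM in WT VEH and at 568, 297 and 472 CPM in WT VEH_HC, with a log2 fold change of 0.16 (SE 0.20). Without WT VEH_HC replicate 2 the log2 fold change was -0.29 for Mag and -0.07 for Cnp, neither of them called.

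Olig2 was at 37.2 and 41.7 CPM in WT VEH and at 55.5, 42.7 and 58.5 CPM in WT VEH_HC. All 3 home-cage libraries lay above both trained libraries, the lowest of them by a narrow margin. The log2 fold change was -0.40 (SE 0.14, interval -0.71 to -0.10, adjusted p = 0.0909 in edgeR). This value lay close to the threshold: DESeq2 called Olig2 lower (adjusted p = 0.0298), as did edgeR without WT VEH_HC replicate 2 (adjusted p = 0.0158). Across the alternatives run its adjusted p ranged from 7.85e-05 to 0.439. Olig1, at 192 and 193 CPM against 242, 162 and 234 CPM, overlapped (log2 fold change -0.15, SE 0.15). Pdgfra was the steadiest member, at 36.2 and 34.3 CPM in WT VEH and 36.7, 33.6 and 36.2 CPM in WT VEH_HC (log2 fold change -0.01, interval -0.20 to 0.18).

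Within the lineage lists 4 of 76 genes (5.26%) were called after training, beside the 8.4% of all genes. Apod, a lipid carrier of mature oligodendrocytes, rose by 0.35 on the log2 scale (SE 0.08, adjusted p = 0.0299 in edgeR), and Elovl7, a fatty acid elongase, rose by 0.74 (SE 0.16, adjusted p = 0.0243). Pdgfd, a PDGF ligand present at 1.40 to 3.19 CPM, rose by 0.77 (SE 0.20, adjusted p = 0.04), while Lingo1, a receptor component that limits myelination, fell by 0.24 (SE 0.06, adjusted p = 0.036). That made 1 of 27 mature myelin genes, 1 of 10 lipid synthesis genes, and 2 of 12 genes among PDGF ligands and receptors for myelin inhibitors. Called were 0 of 9 lineage transcription factors, 0 of 8 genes of newly formed oligodendrocytes and 0 of 10 genes of precursor cells. All 4 calls were lost without WT VEH replicate 1 (adjusted p from 0.255 to 0.289) and without WT VEH replicate 2 (0.0511 to 0.106), those of Apod, Pdgfd and Lingo1 without WT VEH_HC replicate 1 (0.0517 to 0.0926), and those of Elovl7, Pdgfd and Lingo1 also with a GC content correction. The corrected log2 fold changes were 0.60 for Elovl7, 0.60 for Pdgfd and -0.18 for Lingo1 (adjusted p from 0.0532 to 0.116 in edgeR). Sox10 had a log2 fold change of 0.19 (SE 0.18), Myrf 0.17 (SE 0.19) and Cspg4, a proteoglycan of precursor cells, -0.13 (SE 0.10), and none of them was called.

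Choroid plexus markers stood far apart between the same groups. All 14 were called higher in WT VEH, and their sum was 2172 to 3125 CPM in WT VEH and 158 to 413 CPM in WT VEH_HC, with none at 0. The libraries with the highest choroid plexus level were thus both trained WT libraries, and the part of this in the values of the members was not tested. In WT VEH_HC replicate 2, where the structural genes were lowest, vascular fibroblast-like markers were highest of that group (264 CPM against 80.2 and 109 CPM), as were endothelial markers (222 CPM against 129 and 146 CPM). Of the microglia markers 1 of 8 was called higher in WT VEH.

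**Figure D2:**
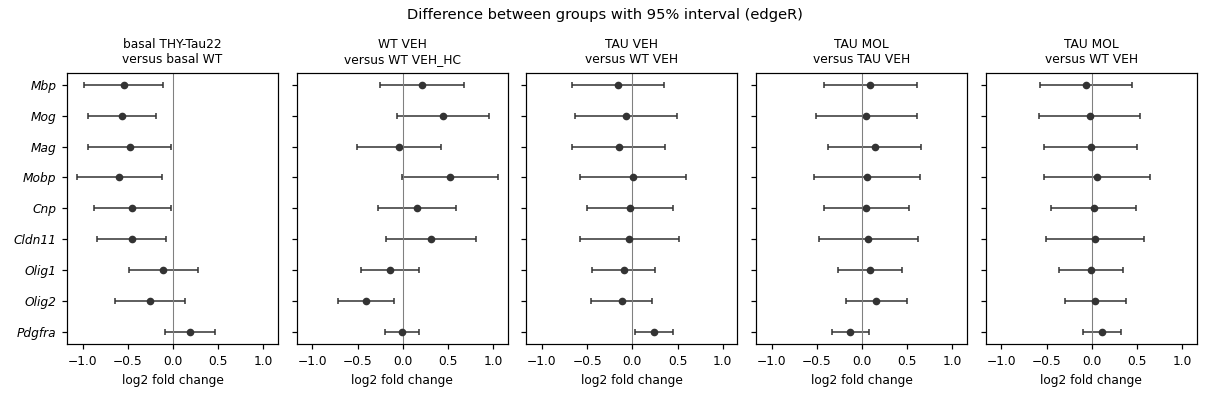
Log2 fold change (horizontal axis) of the 9 genes in the 5 comparisons, first group minus second, from edgeR. Points are estimates and bars are 95% intervals. The 6 structural genes have intervals below 0 in the basal comparison, none of which passed the adjusted threshold, and in the last 2 comparisons every interval spans 0.

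The third comparison set trained THY-Tau22 mice given the nanospheres (TAU VEH) against trained WT mice (WT VEH). Here edgeR called 14.4% of all genes, but none of the 9 members, whose folds ran from 0.896 (Mbp) to 1.18 (Pdgfra). Mbp was at 3644 and 3757 CPM in TAU VEH and at 4109 and 4153 CPM in WT VEH. Mag was at 256 and 271 CPM in TAU VEH and at 304 and 282 CPM in WT VEH, and Olig1 at 177 and 183 CPM against 192 and 193 CPM. On this scale these 3 genes lay wholly below WT VEH, as 29.4% of all genes did. Their direction was not the same in every setting: with the GC content correction the log2 fold change turned to 0.0931 for Mag and 0.222 for Olig1, with scaling by library size alone Olig1 turned to 0.0516, and that of Mbp ran from -0.18 to -0.01 over the alternatives run.

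Pdgfra showed the opposite order, with 40.6 and 42.8 CPM in TAU VEH and 36.2 and 34.3 CPM in WT VEH. It lay wholly above, as 28.5% of all genes did. Its log2 fold change was 0.24 (SE 0.10, interval 0.03 to 0.45), with an unadjusted p of 0.0284 and an adjusted p of 0.128 in edgeR. It was called when only these 2 groups were fitted (adjusted p = 0.0314) and with scaling by library size alone (adjusted p = 0.0201), a scaling that moves the median of all genes by 0.15 upward. The GC content correction brought it to 0.16 on the log2 scale (adjusted p = 0.411).

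The other members differed less. Mog (54.2 and 62.2 CPM against 63.4 and 58.3), Mobp (1015 and 963 CPM against 1047 and 923), Cnp (466 and 511 CPM against 488 and 505) and Cldn11 (183 and 197 CPM against 198 and 191) overlapped between the groups. Olig2 overlapped as well (37.4 and 35.0 CPM against 37.2 and 41.7). The log2 fold changes of the structural genes ran from -0.16 (Mbp, SE 0.23, interval -0.67 to 0.35) to 0.01 (Mobp, SE 0.27, interval -0.58 to 0.59).

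Of 76 genes in the lineage lists outside the 9, 7 were called lower in TAU VEH (9.21%), where 10.8% of all genes were, and 0 were called higher. None of them was among the 27 genes of mature myelin, 10 of lipid synthesis, 9 transcription factors or 8 genes of newly formed oligodendrocytes. Among 10 genes of precursor cells, 3 fell: Cspg4 by 0.59 (SE 0.12, adjusted p = 0.00558 in edgeR), the secreted protein C1ql1 by 0.41 (SE 0.10, adjusted p = 0.0183) and the matrix protein Matn4 by 0.46 (SE 0.10, adjusted p = 0.00888). Over the whole list 5 of the 10 genes had a positive log2 fold change and the median was -0.01. Among 12 genes for PDGF ligands and myelin inhibitor receptors, 4 fell: Pdgfb by 0.45, and the neuronal receptors Rtn4r, Rtn4rl2 and Lingo1 by 0.39, 0.48 and 0.33 (adjusted p from 0.00547 to 0.0192 in edgeR).

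Cspg4 was at 22.6 and 23.2 CPM in TAU VEH and at 37.8 and 31.2 CPM in WT VEH. Its libraries thus stood apart, in the opposite order from Pdgfra. The 7 genes called lower have an exon GC content of 53% to 68.3%, where the median of all annotated genes is 49.4% and Pdgfra has 47.6%. With the GC content correction none of the 7 was called (adjusted p from 0.0614 to 0.985 in edgeR). The corrected log2 fold change was -0.38 for Matn4 and -0.30 for Cspg4, and ran from -0.13 to -0.005 for the other 5. The part of base composition in these calls was not tested. All 7 calls were also lost without TAU VEH replicate 1 (adjusted p from 0.0603 to 0.172). Sox10 (log2 fold change -0.49, SE 0.20, adjusted p = 0.13 in edgeR) and Myrf (-0.38, SE 0.21, adjusted p = 0.266) were lower in both TAU VEH libraries without a call, and their exons hold 61.7% and 57.6% GC. Of the 9 lineage transcription factors tested, which include both, 4 had a positive log2 fold change, and the median was -0.09. With the GC content correction Sox10 had -0.14 (adjusted p = 0.79 in edgeR) and Myrf -0.13 (adjusted p = 0.82). Both were called lower without the filter on low counts (adjusted p = 7.5e-07 for Sox10 and 0.00014 for Myrf) and when only these groups were fitted (0.00144 and 0.00293). Olig3 of the lineage lists had too few counts to be tested, and Pirb was not analysed here.

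Other cell types moved with this comparison too. Choroid plexus markers summed to 461 to 539 CPM in TAU VEH and to 2172 to 3125 CPM in WT VEH, and 13 of 14 were called lower. Astrocyte markers summed to 5042 to 5153 CPM in TAU VEH and to 4042 to 4326 CPM in WT VEH, with 3 of 8 called higher. Neuron markers summed to 7165 to 7184 CPM in TAU VEH and to 7907 to 8493 CPM in WT VEH, with 2 of 9 called lower (Slc17a7 and Rbfox3). The lower sum turned on Slc17a7 (a vesicular glutamate transporter of excitatory neurons, singled out after its values were seen), at 2350 and 2337 CPM in TAU VEH and 3516 and 3739 CPM in WT VEH, while 6 of the 9 neuron markers had a positive log2 fold change and the median was 0.09. Vascular fibroblast-like markers summed to 99 to 106 CPM in TAU VEH and to 179 to 219 CPM in WT VEH, with 1 of 8 called lower, and endothelial markers to 121 to 133 and 150 to 163 CPM, with 0 of 6 called. Of the microglia markers 1 of 8 was called lower, with sums of 459 to 523 CPM in TAU VEH and 462 to 479 CPM in WT VEH. The part of these cell types in the values of the members was not tested.

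The last 2 comparisons concerned CSP-TTK21. TAU MOL was set against TAU VEH, for the effect of the molecule, and against WT VEH, and both comparisons share libraries with the previous one. No member was called in either and no member's libraries stood apart in either. Mbp was at 4487 and 3399 CPM in TAU MOL, on both sides of TAU VEH (3644 and 3757 CPM). Mobp was at 1162 and 895 CPM, Mag at 319 and 262 CPM and Mog at 64.6 and 55.4 CPM. Each of these pairs enclosed the mean of TAU VEH and that of WT VEH. Cnp was at 561 and 448 CPM and Cldn11 at 223 and 176 CPM in the same libraries.

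In both comparisons the 95% interval of every member included 0. Against TAU VEH, the log2 fold changes of the structural genes ran from 0.05 to 0.14 (Mag, SE 0.23, interval -0.37 to 0.65), and against WT VEH from -0.07 to 0.06. Olig1 was at 214 and 168 CPM and Olig2 at 46.3 and 34.6 CPM in TAU MOL, with log2 fold changes against TAU VEH of 0.09 (SE 0.16) and 0.16 (SE 0.15). Pdgfra was at 42.0 and 34.2 CPM, with -0.13 against TAU VEH (SE 0.10, interval -0.34 to 0.08) and 0.11 against WT VEH (SE 0.10, interval -0.10 to 0.32). Replicate 1 was the higher library for all 9 members. The median of the members against TAU VEH was 0.07 with all libraries and -0.11 without TAU MOL replicate 1.

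Against TAU VEH, edgeR called 0 members and 0% of all genes, with 0 members but 1064 genes at an unadjusted p under 0.05, and DESeq2 called 0 members and 52 genes. Wholly above TAU VEH lay 21.5% of all genes, and wholly below 17.4%. Against WT VEH, edgeR called 5.63% of all genes, 25.6% lay wholly above and 26.9% wholly below, and 0 members had an unadjusted p under 0.05. In the lineage lists no gene was called against TAU VEH. Against WT VEH, Pdgfb fell by 0.47 (SE 0.11), Rtn4rl2 by 0.47 (SE 0.09) and Lingo1 by 0.36 (SE 0.06), with adjusted p from 0.0117 to 0.0263 in edgeR. That made 3 of the 76 genes in the lineage lists (3.95%), all 3 among the 12 genes for PDGF ligands and myelin inhibitor receptors. In each of the other lineage lists 0 genes were called. These 3 calls were lost with the GC content correction (log2 fold changes of -0.26, -0.26 and -0.15, adjusted p from 0.122 to 0.403) and on leaving out any 1 of the 4 libraries. Cspg4 had -0.41 (SE 0.11, adjusted p = 0.0587 in edgeR) against WT VEH and 0.18 (SE 0.12, adjusted p = 0.885) against TAU VEH. Against WT VEH it was called lower with DESeq2 (adjusted p = 0.0288), when only these groups were fitted (0.0323) and without the filter on low counts (0.00102), while the GC content correction brought it to -0.22 (adjusted p = 0.424). Choroid plexus markers summed to 1064 to 1173 CPM in TAU MOL, above TAU VEH (0 of 14 called) and below WT VEH (7 of 14 called lower). Against WT VEH, neuron markers summed to 6571 to 6838 CPM beside 7907 to 8493 CPM (1 of 9 called lower, Slc17a7), and astrocyte markers to 4818 to 5404 CPM beside 4042 to 4326 CPM (2 of 8 called higher). Of the microglia markers 1 of 8 was called lower, of the vascular fibroblast-like markers 0 of 8 and of the endothelial markers 0 of 6. The part of these cell types in the 3 calls was not tested.

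In WT VEH_HC, basal WT and TAU MOL, though not in the other 3 groups, libraries that stood off the group mean did so in the same direction for all 6 structural genes. In WT VEH_HC, all 6 lay above the mean of their group in replicates 1 and 3 and below it in replicate 2, by 0.53 to 0.72 on the log2 scale. In basal WT, replicate 1 stood 0.28 to 0.35 above the group mean for each of the 6, and replicate 2 stood 0.33 to 0.47 below. In TAU MOL, all 6 were above the mean in replicate 1 and below it in replicate 2, by 0.11 to 0.20. WT VEH and TAU VEH were more even, with mean deviations of 0.03 and 0.04 on either side, and in each of them single genes deviated in both directions. In basal THY-Tau22 the 6 genes did not deviate the same way: Mobp was lower in replicate 1 by 0.12, and the mean of all 6 was higher there by 0.07.

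**Figure D3:**
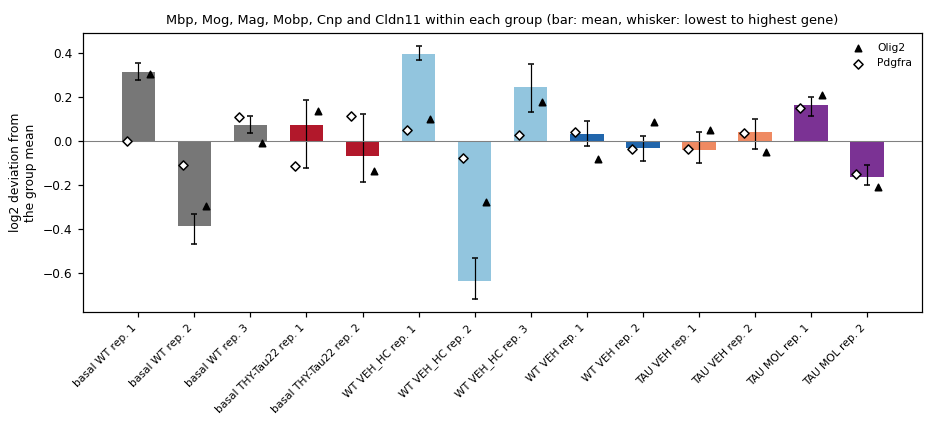
Deviation of the log2 CPM from the mean of the group (vertical axis) in each of the 14 libraries. Bars are the mean of Mbp, Mog, Mag, Mobp, Cnp and Cldn11, whiskers run from the lowest to the highest of these 6 genes, triangles are Olig2 and diamonds Pdgfra. WT VEH_HC replicate 2 lies lowest (mean -0.64), and in it Pdgfra deviates by -0.08.

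Measured by the within-group SD of log2 CPM, the structural genes ranked above the median gene when all libraries were used. In the learning experiment their SD ran from 0.32 (Cnp) to 0.42 (Mobp), where the median gene had 0.12, which put them between the 83.9th and the 89.6th percentile of 16820 genes. Olig1 (0.23) and Olig2 (0.21) ranked at the 74.9th and 72.6th percentile, and Pdgfra (0.11) at the 43.4th. In the basal experiment the structural genes had an SD of 0.26 (Mog) to 0.36 (Mobp), at the 74th to 85.5th percentile of 16324 genes, and Pdgfra 0.13 at the 33.9th. These ranks rested on 1 library in each experiment, as values computed after the data were seen show. Without WT VEH_HC replicate 2 the SD of the structural genes in the learning experiment ran from 0.114 (Mog) to 0.16 (Mbp), at the 50.3th to 66.3th percentile, where the median gene had 0.114, and Olig2 (0.165, at the 67.4th) exceeded all 6. Without basal WT replicate 2 that of the basal experiment ran from 0.105 (Cldn11) to 0.225 (Mag), at the 28.7th to 67.7th percentile. Pdgfra had the lowest SD of the 9 with all libraries in both experiments, and without basal WT replicate 2 Cldn11 was lower.

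Pearson's r with the mean z score of the 6 structural genes was computed over the 14 libraries, centred within each experiment. The values were not centred within groups, so differences between groups enter r too. Each structural gene is also part of its own reference. Pearson's r was 0.69 for Olig1, 0.41 for Olig2 and 0.16 for Pdgfra, against 0.91 (Mag) to 0.99 (Cldn11) for the structural genes. Without WT VEH_HC replicate 2 it was 0.64 for Olig1, 0.59 for Olig2, -0.12 for Pdgfra and 0.87 (Mobp) to 0.99 (Cldn11) for the structural genes. Without basal THY-Tau22 replicate 2 Pdgfra (0.43) stood above Olig2 (0.34). Leaving out basal WT replicate 1 gave the same order, with 0.28 for Pdgfra and 0.24 for Olig2. The 8 genes most like this mean, out of 16216 tested in both experiments, were Sept4 (r = 0.99), Plekhb1 (0.97), Bcas1 (0.97), Tppp3 (0.96), Prr18 (0.96), Arsg (0.96), Qdpr (0.96) and Insc (0.96). Sept4 and Bcas1 are in the lineage lists. These points share libraries, depth and base composition with the members.

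The ratio of Mobp to Mag differed between some of the groups. Mobp stood at 2.07 to 2.52 times the CPM of Mag in WT VEH_HC and at 3.27 to 3.44 times in WT VEH, without overlap. In TAU VEH the ratio was 3.55 to 3.96 and in TAU MOL 3.42 to 3.64. In basal WT it was 3.55 to 3.75, and the 2 basal THY-Tau22 libraries lay on both sides, at 2.76 and 4.24. The ratio of Mobp to Mag was chosen after the values were seen and was not tested. That of Cldn11 to Cnp overlapped between WT VEH_HC (0.315 to 0.382) and WT VEH (0.379 to 0.406).

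Dependence on base composition varied between libraries. Each library was set against the mean of its experiment gene by gene, and Spearman's rho between that log2 ratio and exon GC content, across genes, was 0.41 to 0.45 in WT VEH_HC, 0.08 and 0.28 in WT VEH, and -0.62 to -0.40 in the TAU libraries of the learning experiment. In basal THY-Tau22 replicate 1, with the lower Mobp to Mag ratio, rho was 0.48, and in replicate 2, with the higher ratio, it was -0.60. Basal WT libraries had 0.07 to 0.32. GC content is higher in Mag exons than in Mobp exons, as given with the promoters. The part of base composition in the ratio was not tested.

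**Figure D4:**
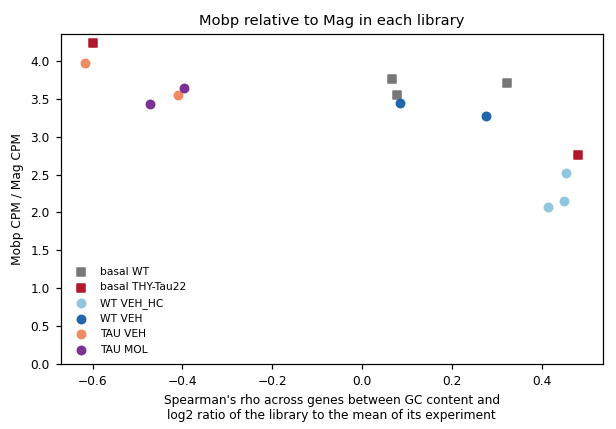
Ratio of Mobp to Mag CPM in each library (vertical axis, from 0) against the dependence of the library on GC content (horizontal axis, Spearman's rho across genes). Squares are basal and circles learning libraries. The 3 WT VEH_HC libraries and basal THY-Tau22 replicate 1 have the 4 lowest ratios and the 4 highest rho values.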

How the data were processed

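RNA-seq of 14 libraries in 6 groups was analysed. The authors made poly-A libraries, read single-end fragments, aligned them to mm9 with TopHat2 2.0.10 and Bowtie2 2.1.0 and counted unique reads per Ensembl gene with HTSeq 0.5.4p3, as the submitters' processing notes and the methods state. The authors deposited raw counts, used for every test, and a normalized signal (counts divided by 1 factor per library), read only to check the columns. The learning table has 138 lines without a gene, which were left out. Groups came from the sample titles.

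Differences were tested in edgeR 4.0.16 (R 4.3.3) with TMM scaling and its quasi-likelihood F test, after filterByExpr had kept 16324 of 26570 basal and 16820 of 25933 learning genes, and with Benjamini-Hochberg adjustment over all of them. Each experiment had its own fit, with 5 and 9 libraries. Log2 CPM carry a prior count of 1. The alternatives were DESeq2 1.42.0 (Wald test), edgeR with DESeq2 size factors, edgeR scaled by library size only, all genes without the filter, a loess correction for GC content and length (span 0.3), the replicate number as a block, only the groups compared, and leaving out each library. Scripts were tested on simulated data. Python 3.11.15 with pandas 2.3.3 and matplotlib 3.10.9 made the tables and figures. Positions and promoters came from the NCBIM37 (mm9) genome and its GENCODE annotation, where 9 members matched. The study counts its libraries as mice, and the p-values measure the spread between these libraries.

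The members and lists were chosen with earlier results of these data known. Named were the 9 members, each lineage gene called in a comparison where a list held 4 or fewer (otherwise the 2 largest changes in each direction), Sox10, Myrf and Cspg4 always, and the 8 genes most like the structural members. Myrf and Cers2 stand in the tables under older symbols. A further gene that the rule names is not reported here. Columns of the authors' own comparisons were not used.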

Additional observations from a re-analysis of the deposited data

How the results depend on the processing

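No comparison called any of the 9 members, a count that changed in few settings. Without the filter on low counts it was 1 in basal THY-Tau22 against basal WT and 5 in WT VEH against WT VEH_HC (Mbp, Mog, Mobp and Cldn11 higher, Olig2 lower). In the latter it was 1 with DESeq2 and ran from 0 to 1 on leaving out single libraries. In TAU VEH against WT VEH it was 1 with library size alone and 1 with only the groups compared. The count of all genes called moved further. It was 4 in the basal comparison, 40 with DESeq2, 11 with the GC content and length correction, 125 without the filter and 1 to 15 on leaving out single libraries. After training it was 1413, 766 with the GC correction, 2686 without the filter, 310 with only the groups compared and 73 to 2798 on leaving out single libraries. In TAU VEH against WT VEH it was 2423, 484 with the GC correction and 915 to 1276 on leaving out single libraries. In TAU MOL against TAU VEH it was 0, 52 with DESeq2, 233 without the filter, 60 with only the groups compared and 0 to 11 on leaving out single libraries. In TAU MOL against WT VEH it was 947, 25 with the GC correction, 1590 without the filter, 1490 with only the groups compared and 2 to 4 on leaving out single libraries, each of which leaves 1 library in a group that is assumed to vary like the others. The cause was not tested.

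In TAU VEH against WT VEH the log2 fold change turned positive with the GC correction for Mag (0.0931), Cnp (0.11), Olig1 (0.222) and Olig2 (0.15), and with library size alone for Mog (0.08), Cnp (0.12), Cldn11 (0.11), Olig1 (0.0516) and Olig2 (0.03). These were all 9 sign changes among 63 member values in the settings with all libraries of both groups, and 9 of 63 changed sign in TAU MOL against WT VEH as well. The median of the members in TAU VEH against WT VEH was -0.07, 0.09 with the GC correction and 0.08 with library size alone, which moves the median of all genes by 0.15. In TAU MOL against WT VEH library size alone moves it by 0.12. In WT VEH against WT VEH_HC the median of the members was 0.16 and turned to -0.05 without WT VEH_HC replicate 2. No member whose sign changed was called.

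The replicate numbers were not treated as pairs, which was to be done only if every correlation exceeded 0.1. The correlation of the deviations of same-numbered libraries ran from -0.16 to 0.24 over 14 pairs, of which 4 exceeded 0.1. In a group of 2 libraries the deviations mirror each other, so pairs between such groups repeat 1 value. With so few libraries these correlations cannot decide whether the numbers pair them. With the number as a block, all genes called were 37 in the basal comparison and 3000 after training, where 1 member, Mobp, was called higher (adjusted p = 0.029 in edgeR). The block changed no other call of a member. Counts of at least 928 per member and library leave the number and spread of the libraries, not the depth, as the limit. Pdgfd, at 1.40 to 3.84 CPM in the learning experiment, is limited by depth as well.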
